A study of Homo sapiens with 4 samples.

Results

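The 10 genes described here encode chaperones and folding enzymes of the endoplasmic reticulum (ER) together with XBP1, a transcription factor that controls many of them. They were taken by symbol from the deposited gene counts, where all 10 of them were found among 23228 gene symbols, and all 10 had enough reads to be tested among 12706 tested genes. HSPA5 is also in a list of ferroptosis-repressing genes that the study showed for these same libraries, so its direction here is not independent evidence. The cells were ES2, a human ovarian cancer cell line, and RNA was taken 12 h after addition of either EC359 (10 nM) or vehicle (0.1% DMSO). EC359 is a small-molecule inhibitor of the receptor for leukemia inhibitory factor, LIFR. Each treatment had 2 libraries, and no other agent, dose, time or cell line was sequenced. The replicates of a treatment are described by the study as biologically independent, and p-values measure only the spread between these libraries.

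Secreted and membrane proteins fold in the ER. HSPA5 (BiP) binds unfolded chains, and HSP90B1 (GRP94) finishes the folding of selected clients. DNAJB9 and SDF2L1 are cofactors of HSPA5. PDIA4 and PDIA6 are protein disulfide isomerases, and CALR and CANX are lectin chaperones that hold glycoproteins by their sugars. HERPUD1 belongs to the machinery that removes misfolded proteins for degradation. When unfolded chains build up, the sensors ATF6, IRE1 (ERN1) and PERK (EIF2AK3) start the unfolded protein response, in which cleaved ATF6 and spliced XBP1 raise transcription of the chaperone genes. Cells that secrete much protein keep these genes at a high level.

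ATF6 acts through the ER stress response element (ERSE), here searched as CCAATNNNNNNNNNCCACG, where N is any base. A variant, ERSE-II, was searched as ATTGG, any single base and then CCACG, and the core of the XBP1 element as TGACGTG. Both strands of the 250 bases before each RefSeq transcription start (GRCh38.p14) were read. ERSE and ERSE-II share the CCACG end, and no match of one overlapped a match of the other in these genes. RefSeq lists 16 starts for the 10 genes. An ERSE stood before at least 1 start of 6 genes and an ERSE-II before 2 more. Over all 35116 starts in that table, 0.074% had an ERSE, 0.0513% an ERSE-II and 1.68% the XBP1 core. No match to any of these letters was in the windows of PDIA4 and DNAJB9, and the XBP1 core was in the window of 0 of the 10 genes. A match describes letters only, and binding was not measured. The matches are printed below from the CCAAT or ATTGG end, with the fixed letters in capitals, because 8 of the 10 genes hold one. They are not independent of the choice of genes, which were taken as ER chaperones and targets of ATF6 and XBP1.
HSPA5: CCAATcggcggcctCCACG
HSP90B1, distal match: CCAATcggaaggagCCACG
HSP90B1, proximal match: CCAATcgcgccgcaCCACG
PDIA6: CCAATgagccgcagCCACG
CALR: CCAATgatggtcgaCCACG
CANX: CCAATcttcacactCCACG
XBP1: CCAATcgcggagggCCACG
HERPUD1: ATTGGgCCACG
SDF2L1: ATTGGtCCACG

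HSP90B1 was the 1 promoter of the 35116 with 2 ERSE matches, and they lay on opposite strands, from 194 to 176 and from 89 to 71 bases before the start. The exact ERSE match of HSPA5 lay from 66 to 48 bases before its start and that of XBP1 from 52 to 34. Sites that differ from the searched letters were not looked for in any gene. The CALR match was on the opposite strand, from 225 to 207 bases before the start. In PDIA6 the match was before 1 of the 2 listed starts. In CANX a single genomic match served 2 of its 4 starts, whose windows overlap. The upstream windows of HSPA5, HSP90B1 and CALR follow on the strand of the gene, with each whole match in capitals. HSPA5 is shown as the central chaperone, and HSP90B1 and CALR as the genes that passed the test below.
HSPA5, chr9:125241344-125241593, minus strand: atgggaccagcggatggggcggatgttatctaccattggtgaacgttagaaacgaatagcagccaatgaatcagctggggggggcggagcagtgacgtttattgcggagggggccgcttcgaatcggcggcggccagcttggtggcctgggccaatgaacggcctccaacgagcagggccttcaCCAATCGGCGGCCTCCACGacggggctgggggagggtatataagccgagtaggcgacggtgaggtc
HSP90B1, chr12:103930160-103930409, plus strand: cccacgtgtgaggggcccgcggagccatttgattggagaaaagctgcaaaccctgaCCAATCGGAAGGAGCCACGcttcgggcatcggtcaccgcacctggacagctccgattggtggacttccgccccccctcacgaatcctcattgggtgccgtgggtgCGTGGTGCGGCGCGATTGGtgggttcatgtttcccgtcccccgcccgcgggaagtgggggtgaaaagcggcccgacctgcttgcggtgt
CALR, chr19:12938359-12938608, plus strand: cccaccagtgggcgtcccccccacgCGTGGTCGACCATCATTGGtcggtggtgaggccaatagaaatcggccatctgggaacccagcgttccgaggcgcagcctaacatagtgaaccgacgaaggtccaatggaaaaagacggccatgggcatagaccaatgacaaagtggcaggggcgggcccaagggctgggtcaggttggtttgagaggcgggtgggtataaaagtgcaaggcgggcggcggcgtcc

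**Figure D1:**
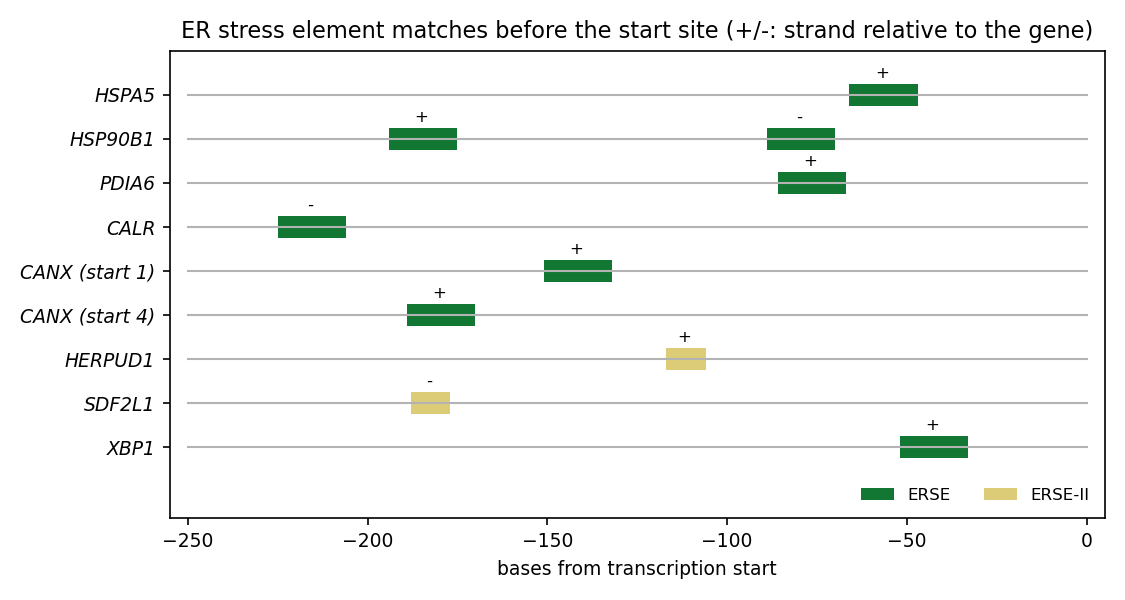
Positions of ERSE (green) and ERSE-II (yellow) matches in the 250 bases before RefSeq transcription starts, with the horizontal axis in bases from the start and 1 line per start that holds a match. The sign above a bar is the strand of the match relative to the gene. HSP90B1 has 2 matches, and the lines of CANX starts 1 and 4 show the same genomic match.

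Reads counted on genes totalled 25572494 to 25603886 in the vehicle libraries and 29914788 to 31707553 in the EC359 libraries, so depth and treatment cannot be told apart. Values are normalized counts, that is, counts scaled to the mean library size of 28212830 reads after TMM correction for composition. Of the epithelial markers, KRT7 ran from 7423 to 8124 and KRT18 from 7006 to 7759 normalized counts, whereas EPCAM, CDH1 and MUC16 had 0 to 2 raw counts in each library. The mesenchymal marker VIM ran from 135415 to 157710 normalized counts. All 5 leukocyte markers had 0 to 6 raw counts. CDH5, listed as an endothelial marker, had 3465 to 3704 normalized counts while PECAM1 and VWF had 0 to 2 raw counts. No marker was called by edgeR. At an unadjusted p under 0.05, KRT18 was higher and VIM lower, the latter by a log2 fold change of -0.17 (adjusted p = 0.0135). LIFR had 1525 and 1475 normalized counts with vehicle and 1612 and 1519 with EC359. EC359 acts on the LIFR protein, so this transcript does not check the treatment.

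The main question was whether the ER chaperone transcripts changed with EC359. CALR and HSP90B1, soluble chaperones of the ER lumen, fell with EC359, by log2 fold changes of -0.26 and -0.23. The other 8 genes did not pass the test, with log2 fold changes from -0.18 in PDIA4 to 0.29 in SDF2L1. At an adjusted p under 0.01, 2 of the 10 genes were called lower, CALR and HSP90B1, and 0 were called higher. Over all tested genes 0.795% were called lower and 0.299% higher, which is 101 and 38 genes. With total counts as the only scaling these were 68 and 52, and the calls among the 10 genes numbered 2 lower and 0 higher there too. At an adjusted p under 0.05, 5 of the 10 were lower and 0 higher, against 2.64% and 1.68% of all tested genes. By unadjusted p under 0.05 the counts were 5 lower and 1 higher, against 11% and 10.7% of all tested genes. The median log2 fold change was -0.12 over the 10 genes and 0.0029 over all tested genes. All p-values come from the quasi-likelihood F test of edgeR, adjusted over all tested genes by Benjamini-Hochberg. Without EC359 replicate 1 the log2 fold change was -0.27 for CALR and -0.26 for HSP90B1. Without EC359 replicate 2 it was -0.25 and -0.21. Neither gene was called in these fits, where the calls of lower genes were lost over all tested genes too. In such a fit the lone EC359 library is assumed to vary like the vehicle libraries.

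Abundant genes were counted apart, in a comparison added after the results had been seen. The genes with a mean of at least 10000 normalized counts numbered 472, of which 8.05% were called lower at 0.01 and 16.7% were lower at 0.05, with a median log2 fold change of -0.04. At an unadjusted p under 0.05 by edgeR, 160 of the 472 were lower and 46 higher. The log2 fold change was below 0 in 318 and above 0 in 154. In that class stood 6 of the 10 genes described here, of which 2 were called lower at 0.01 and 5 were lower at 0.05. CANX, the most abundant of them by count, was the exception.

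**Figure D2:**
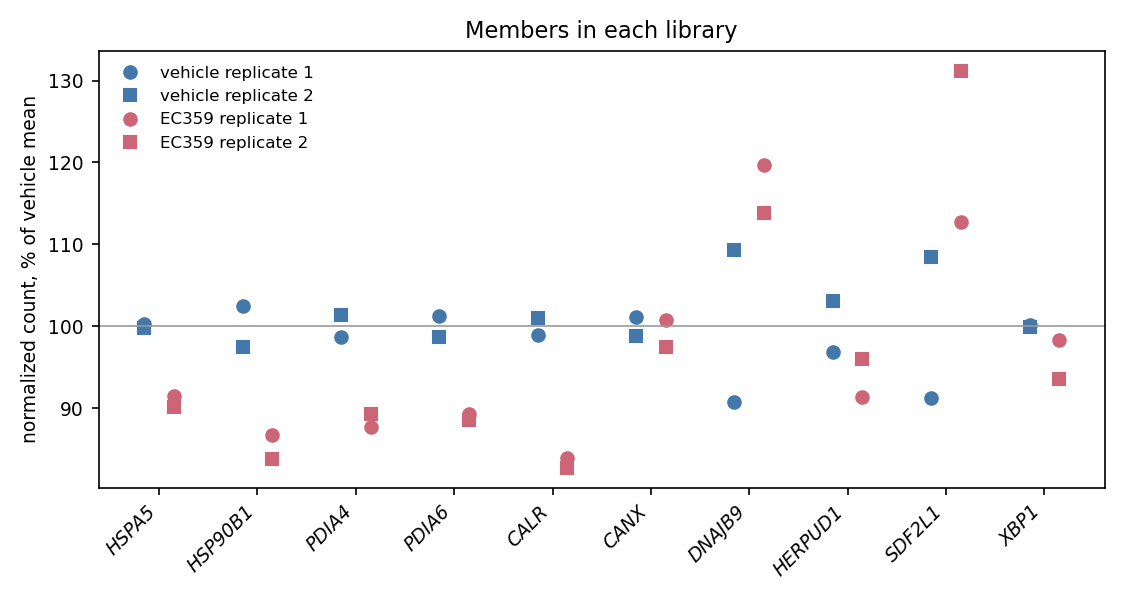
Normalized count of each gene in each library as a percentage of its vehicle mean (vertical axis), with genes along the horizontal axis, vehicle libraries in blue, EC359 libraries in red, replicate 1 as circles and replicate 2 as squares. Both EC359 libraries sit below both vehicle libraries for HSPA5, HSP90B1, PDIA4, PDIA6, CALR, HERPUD1 and XBP1 and above them for DNAJB9 and SDF2L1, and the libraries of CANX overlap.

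HSPA5 is the Hsp70 chaperone of the ER and also holds the stress sensors inactive. It had 15330 and 15260 normalized counts with vehicle and 13996 and 13793 with EC359. The 2 vehicle libraries were close together, and both EC359 libraries were below them. The log2 fold change was -0.14 (standard error 0.03, adjusted p = 0.0295), which did not pass 0.01. HSP90B1, the Hsp90 of the ER, had 23477 and 22332 normalized counts with vehicle and 19860 and 19183 with EC359. It fell by 14.8%, a log2 fold change of -0.23 (standard error 0.034, adjusted p = 0.00651). The groups did not overlap, and the gap between them was wider than the gap within either. In GRCh37, HSPA5 spans 127997132 to 128003661 of chromosome 9 and shares 9.56% of its 50-base windows with other transcripts, among them its pseudogene HSPA5P1. HSP90B1 spans 104323885 to 104347709 of chromosome 12 and shares 13.6%, with its pseudogenes and with C12orf73 (UQCC6) on the other strand. C12orf73 had 117 to 191 raw counts per library.

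The cytosolic counterparts of these chaperones gave a comparison within each library that needs no scaling. Per HSP90AB1 read there were 0.183 and 0.175 HSP90B1 reads with vehicle and 0.163 and 0.161 with EC359. Per HSPA8 read there were 0.133 and 0.137 HSPA5 reads with vehicle and 0.120 and 0.124 with EC359. Both ratios were lower in both EC359 libraries. The exact two-sided permutation p was 0.333 for each, the smallest that 2 libraries against 2 can give, and the pairs were chosen after their values were seen.

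PDIA4 and PDIA6 are the disulfide isomerases among the 10 genes. PDIA4 had 11459 and 11771 normalized counts with vehicle and 10195 and 10374 with EC359. PDIA6 had 13725 and 13370 with vehicle and 12095 and 12002 with EC359. In both genes the EC359 libraries were below the vehicle libraries without overlap. The log2 fold changes were -0.18 for PDIA4 (standard error 0.032, adjusted p = 0.0152) and -0.17 for PDIA6 (standard error 0.031, adjusted p = 0.0155). Neither passed 0.01. DESeq2 called both (adjusted p = 0.00165 and 0.00188) and limma voom neither (0.013 and 0.0129). Leaving out 1 library at a time gave log2 fold changes from -0.19 to -0.16 for PDIA4 and from -0.19 to -0.15 for PDIA6. PDIA4 is on chromosome 7 of GRCh37 from 148700154 to 148725754. PDIA6 is on chromosome 2 from 10923517 to 10978103 and overlaps ATP6V1C2 on the other strand, with whose annotated transcripts it shares 42.1% of its 50-base windows. ATP6V1C2 itself had 0 to 4 raw counts per library.

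The lectin chaperones CALR and CANX share a sugar-binding mode but differ in place, since calreticulin is soluble and stores calcium while calnexin is anchored in the membrane. CALR had 20436 and 20875 normalized counts with vehicle and 17345 and 17090 with EC359. It fell by 16.6%, a log2 fold change of -0.26 (standard error 0.03, adjusted p = 0.00229), the lowest of the 10 genes. CANX had 35241 and 34439 normalized counts with vehicle and 35126 and 33975 with EC359, so its groups overlapped. The log2 fold change of CANX was -0.012, with a 95% interval from -0.079 to 0.055 (adjusted p = 0.863). Within each library there were 0.580 and 0.606 CALR reads per CANX read with vehicle and 0.494 and 0.503 with EC359. The log2 difference was -0.25 (exact two-sided permutation p = 0.333, the smallest possible here). This pair sets the lowest of the 10 genes against the gene whose groups overlapped, so the ratio is not separate evidence. CALR is on chromosome 19 of GRCh37 from 13049392 to 13055303 and CANX on chromosome 5 from 179105629 to 179158642.

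DNAJB9 (ERdj4) is a J-domain cofactor of HSPA5, and SDF2L1 binds J-domain proteins of the ER. DNAJB9 had 322 and 388 normalized counts with vehicle and 425 and 404 with EC359. SDF2L1 had 301 and 358 with vehicle and 372 and 433 with EC359. For both genes the EC359 libraries were above the vehicle libraries, but the gap between the groups was narrower than the gap between the vehicle replicates. The log2 fold change was 0.22 for DNAJB9 (95% interval -0.00056 to 0.45, adjusted p = 0.232) and 0.29 for SDF2L1 (95% interval 0.04 to 0.53, adjusted p = 0.168). Leaving out 1 library at a time gave values from 0.10 to 0.36 for DNAJB9 and from 0.17 to 0.41 for SDF2L1. DNAJB9 is on chromosome 7 of GRCh37 from 108210311 to 108215294 and SDF2L1 on chromosome 22 from 21996591 to 21998588.

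HERPUD1 had 1126 and 1198 normalized counts with vehicle and 1062 and 1116 with EC359. Both EC359 libraries were lower, by a margin smaller than the gap between replicates, and the log2 fold change was -0.094 (95% interval -0.23 to 0.042, adjusted p = 0.411). XBP1 had 1879 and 1875 normalized counts with vehicle and 1845 and 1756 with EC359, with a log2 fold change of -0.06 (95% interval -0.17 to 0.05, adjusted p = 0.528). Gene counts join the spliced and unspliced forms of XBP1 mRNA, so the splicing that activates the factor is not visible in them. Leaving out 1 library gave values from -0.14 (without vehicle replicate 1) to -0.054 (without vehicle replicate 2) for HERPUD1, and from -0.10 (without EC359 replicate 1) to -0.025 (without EC359 replicate 2) for XBP1. HERPUD1 is on chromosome 16 of GRCh37 from 56966054 to 56978776 and XBP1 on chromosome 22 from 29190543 to 29196585.

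Counted over the 10 genes, the groups did not overlap and EC359 was lower in 7, higher in 2 and overlapping in 1. Over all tested genes, EC359 was lower without overlap in 25.4% and higher without overlap in 26.1%. Abundant genes leaned lower. Of the 472 genes with a mean of at least 10000 normalized counts, 233 were lower without overlap and 85 higher. That class holds 6 of the 10 genes. The 10 genes together took 0.433% and 0.428% of the gene counts of the vehicle libraries and 0.401% and 0.394% of those of the EC359 libraries. In bulk RNA, fewer cells that express a gene and less RNA per cell cannot be told apart.

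**Figure D3:**
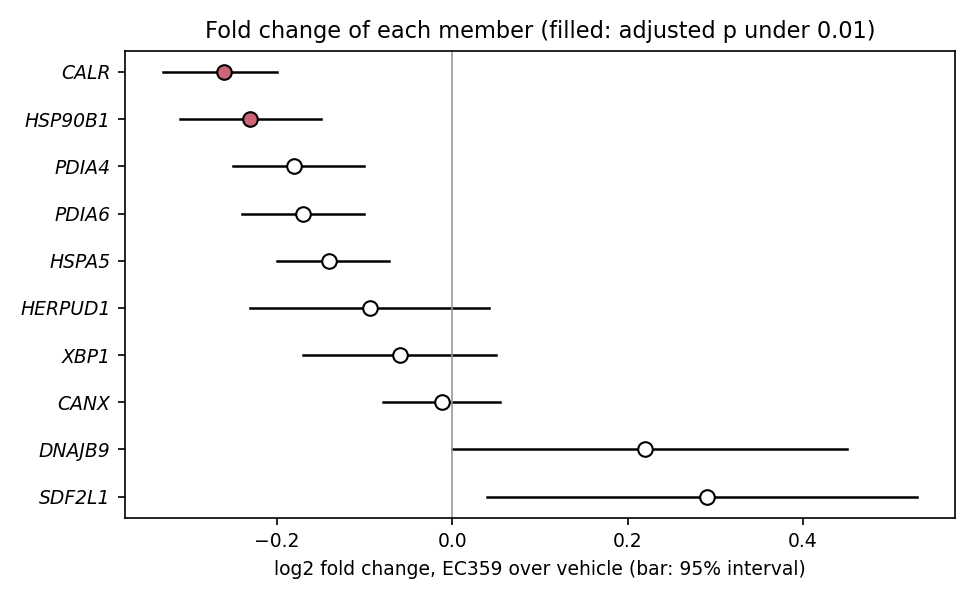
Log2 fold change of EC359 over vehicle (horizontal axis) for each of the 10 genes, with a bar for the 95% interval of the edgeR fit and a filled point where the adjusted p was under 0.01. CALR and HSP90B1 are filled at -0.26 and -0.23, the interval of CANX crosses 0, and SDF2L1 is highest at 0.29.

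Levels were compared between genes as RPKM, counts scaled to the length of the canonical GENCODE transcript and to the TMM-corrected library size. On this scale CALR was highest, with 385 ± 5.78 in vehicle (SD, n = 2), followed by HSP90B1 with 292 ± 10.3, CANX with 251 ± 4.09, PDIA6 with 211 ± 3.9, PDIA4 with 149 ± 2.83 and HSPA5 with 138 ± 0.449. XBP1 stood at 37.2 ± 0.0631. The libraries of neighbouring genes in this order did not overlap, except for HERPUD1 with 14.4 ± 0.637 and SDF2L1 with 14.2 ± 1.73. DNAJB9 was lowest with 5.23 ± 0.687. The place of PDIA6 in this order is uncertain, since 42.1% of its windows are shared with transcripts of ATP6V1C2 and the strand setting of the counting is not given. The order of PDIA4 and HSPA5 is uncertain too, since HSPA5 shares 9.56% of its windows with other transcripts and PDIA4 shares 0%. Reads with several placements were not counted. With EC359, HSP90B1 and CANX both stood at a mean RPKM of 249. The longest of these transcripts was that of CANX with 4915 bases and the shortest that of SDF2L1 with 825 bases, and GC content ran from 37.3% in DNAJB9 to 65.1% in SDF2L1.

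**Figure D4:**
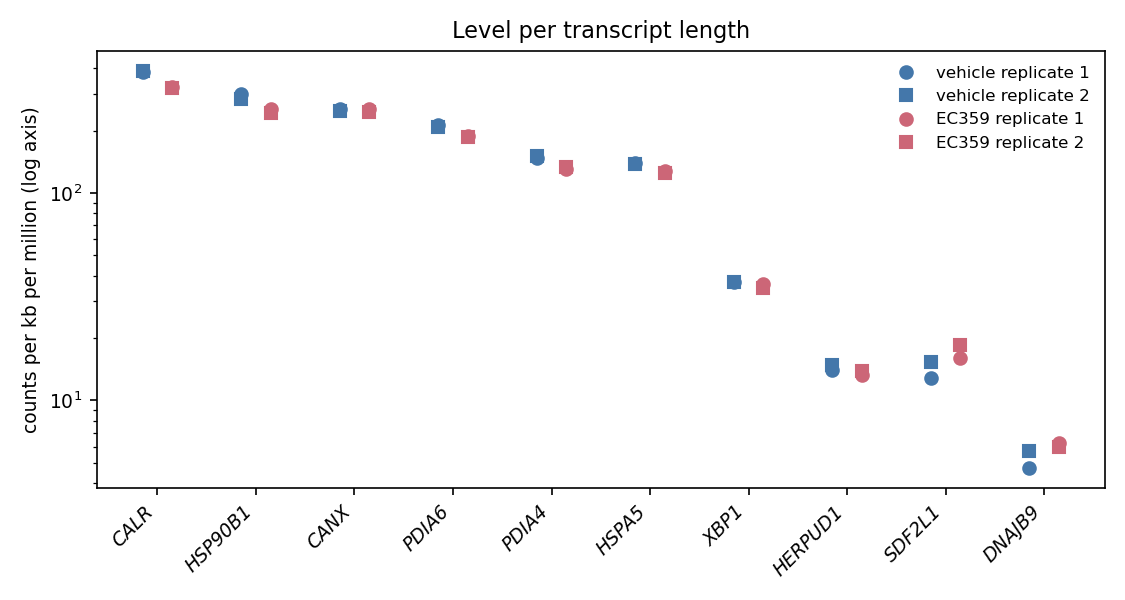
RPKM (log axis) for each gene in each library, ordered by the vehicle mean, with vehicle in blue and EC359 in red. CALR leads at 385 in vehicle and DNAJB9 is lowest at 5.23, and the 6 abundant chaperones stand well above XBP1 at 37.2.

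Genes around the 10 were read from lists written from general knowledge, with earlier results of these data known. The counts and medians of these lists are therefore not independent of the data. Beyond the 10, 31 of 32 other ER folding factors were tested, of which 1 was called lower and 0 higher, with a median log2 fold change of -0.024. At an unadjusted p under 0.05, 10 of the 31 were lower and 7 higher, against 11% and 10.7% of all tested genes. The gene called was PPIB, an ER prolyl isomerase, with 11673 and 11589 normalized counts in vehicle and 9907 and 9827 with EC359 (log2 fold change -0.24, standard error 0.031, adjusted p = 0.00333). ERO1LB, an oxidase that recharges disulfide isomerases, had the highest value of that list among genes with at least 50 normalized counts (log2 fold change 0.29, adjusted p = 0.168). Genes of protein translocation into the ER and of N-glycosylation had a median of -0.065 over 27 tested genes. Of these 27, 20 were below 0 and 7 above 0, against 6230 and 6476 of all tested genes. At that unadjusted p, 9 of the 27 were lower and 1 higher. At an adjusted p under 0.01, 1 was called lower and 0 higher. This was SSR2, a subunit of the translocon-associated complex, with 7483 and 7473 normalized counts in vehicle and 6421 and 6292 with EC359 (log2 fold change -0.23, adjusted p = 0.00514). SEC61G, a subunit of the translocation channel, had -0.24 (adjusted p = 0.0135), and SPCS3, of the signal peptidase, had 0.13 (adjusted p = 0.0681).

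Of 8 sensors and proteases that start the unfolded protein response, 0 were called by edgeR, with 2 lower and 0 higher at an unadjusted p under 0.05 and a median of -0.021. For this and the next lists, the share of all tested genes at that unadjusted p is 11% lower and 10.7% higher. ATF6B was lowest (log2 fold change -0.16, adjusted p = 0.0781) and ERN1, which splices XBP1, was highest (0.09, adjusted p = 0.642). ER-associated degradation had 23 tested genes, of which 0 were called, with 4 lower and 3 higher at an unadjusted p under 0.05, and a median of -0.0045. The lowest was UBE2G2, a ubiquitin-conjugating enzyme (log2 fold change -0.18, adjusted p = 0.0266), and the highest SYVN1, the ubiquitin ligase that works with HERPUD1 (0.18, adjusted p = 0.0986). ER calcium handling had 14 tested genes, 0 called, 2 lower and 1 higher at an unadjusted p under 0.05, and a median of 0.011. ITPR1, a calcium release channel, was lowest (log2 fold change -0.35, adjusted p = 0.038) and CCDC47 highest (0.11, adjusted p = 0.0748).

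Of the 12 genes of the PERK-ATF4 arm, which slows translation and raises amino acid supply, 2 were called higher and 0 lower. Over all tested genes, 0.299% were called higher and 0.795% lower. At an unadjusted p under 0.05, 5 of the 12 were higher and 2 lower, and the median log2 fold change was 0.16. ATF3, a stress-induced transcription factor, had 152 and 141 normalized counts with vehicle and 249 and 276 with EC359 (log2 fold change 0.84, adjusted p = 0.0055). ASNS, asparagine synthetase, had 2234 and 2347 with vehicle and 2887 and 2925 with EC359 (log2 fold change 0.34, adjusted p = 0.00334). VLDLR was the lowest of the arm (log2 fold change -0.29, adjusted p = 0.0254). At an adjusted p under 0.05 there were 2 lower and 2 higher, against 2.64% and 1.68% of all tested genes. ATF4, the transcription factor of the arm, had -0.21 (adjusted p = 0.0177) and its target DDIT3 had -0.033 (adjusted p = 0.849), both named after their values were seen. The median of the arm was 0.068 without vehicle replicate 1 and 0.27 without vehicle replicate 2. It was 0.24 without EC359 replicate 1 and 0.093 without EC359 replicate 2. Among cytosolic and mitochondrial chaperones, 22 genes were tested, with a median of 0.025. At an unadjusted p under 0.05, 6 were higher and 3 lower. At an adjusted p under 0.05, 4 were higher and 0 lower, against 1.68% and 2.64% of all tested genes. At 0.01, 1 was called higher and 0 lower. This was HSPA1B, a heat-shock-induced Hsp70, with 1298 and 1299 normalized counts in vehicle and 1626 and 1782 with EC359 (log2 fold change 0.39, adjusted p = 0.00677), a value that is uncertain because HSPA1A is a near-identical copy. HSPE1, the mitochondrial cofactor of Hsp60, was lowest (log2 fold change -0.18, adjusted p = 0.101). In the fits without EC359 replicate 1 or 2, no call of the 7 lists held, and nearly all calls over all tested genes were lost too.

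**Figure D5:**
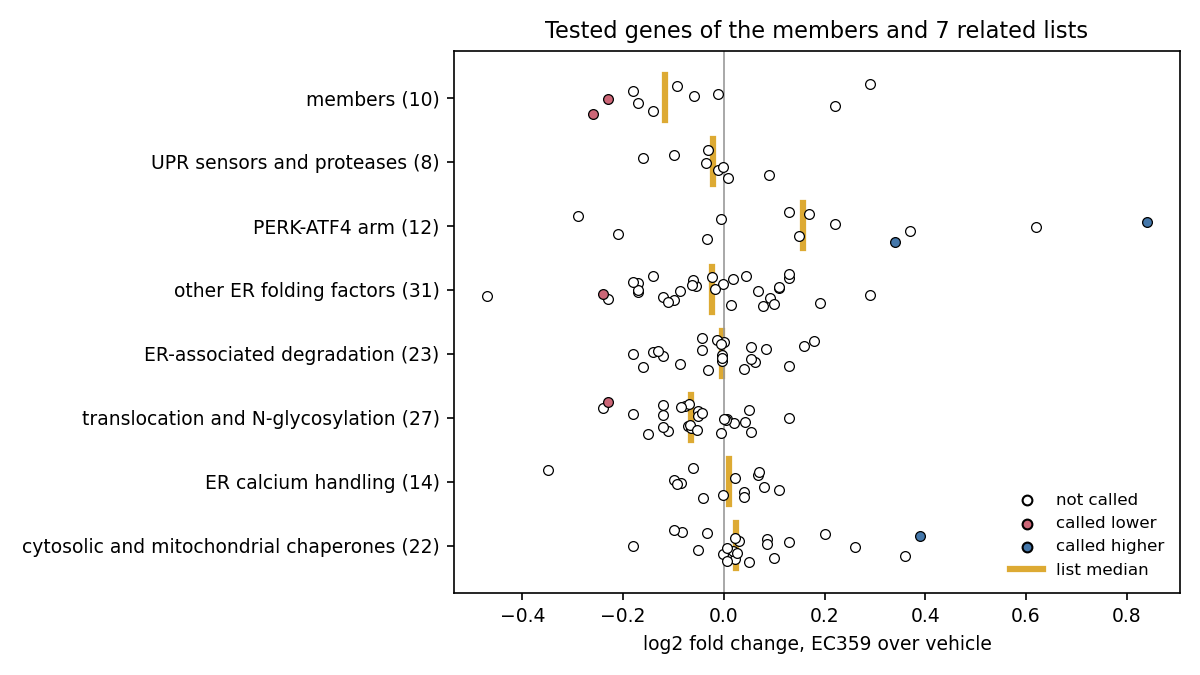
Log2 fold change of EC359 over vehicle (horizontal axis) for every tested gene of the 10 members and of 7 related lists, with the number tested in brackets, the list median as a yellow bar, and genes called lower in red or higher in blue at an adjusted p under 0.01. The member median is -0.12 and that of the PERK-ATF4 arm 0.16.

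Among 146 tested genes of the members and lists other than HSPA5, those whose log2 levels followed HSPA5 most closely over the 4 libraries were VCP, PDIA3 and ERO1L. The root mean square difference from HSPA5, after centring each gene, was 0.009, 0.014 and 0.017 on the log2 scale. VCP, the ATPase that extracts proteins from the ER membrane, had a log2 fold change of -0.13 (adjusted p = 0.0384). PDIA3, the disulfide isomerase that works with CALR and CANX, had -0.11 (adjusted p = 0.0756), and ERO1L, an ER oxidase, had -0.17 (adjusted p = 0.0254). None of these passed 0.01. LIF, the ligand of LIFR, had a log2 fold change of -0.09 (adjusted p = 0.23), and IL6ST, its co-receptor, had 0.18 (adjusted p = 0.0203).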

How the data were processed

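The authors aligned single-end 50 bp reads of stranded poly(A) libraries to UCSC hg19 with TopHat2 (2.0.8b in the submitters' processing notes), used NCBI RefSeq genes and deposited raw HTSeq read counts per gene for each of the 4 libraries, without normalization. The strand setting of the counting is not given in the sources used here. Summary rows that name no gene were left out; reads on no gene were 10.9% to 12% and ambiguous reads 0.852% to 0.879% of uniquely placed reads. Reads with several placements were not counted.

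From these counts, filterByExpr (minimum count 10, minimum total 15) of edgeR 4.0.16 in R 4.3.3 kept 12706 genes, which were scaled by TMM and compared by the quasi-likelihood test with treatment as the only term. Genes were called at a Benjamini-Hochberg adjusted p under 0.01, the study's threshold. With DESeq the study reported many more genes at p under 0.01 than were called here. The cause of this difference was not tested. Standard errors are the fold change over the root of F, and 95% intervals use the total degrees of freedom. The replicates differed by more than sampling noise (chi-square per degree of freedom 3.78 and 2.69). Normalized counts are at the mean effective library size. Gene places, lengths and GC came from GENCODE v44 lifted to GRCh37, the assembly of hg19, and promoter sequences from RefSeq (GRCh38.p14). All 10 members matched both by symbol. Shared sequence is the share of 50-base transcript windows found in transcripts of other genes, 13.6% for HSP90B1, 9.72% for CALR, 9.56% for HSPA5 and 42.1% for PDIA6, and at most 0.499% for the other members. The fit was tested on simulated counts, with known changes placed in tested genes of all levels. It called 11.2% of the log2 changes of 0.2, 36% of those of 0.3 and 74.6% of those of 0.5, with 0 false calls. Over genes of all levels, most changes of 0.2 and 0.3 were thus missed. Rates for abundant genes alone were not computed. The 6 members with a mean of at least 10000 normalized counts had standard errors of 0.03 to 0.034.

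Members and lists were chosen with earlier results of these data known. Named genes are the members, the called genes and the highest and lowest of each list at 50 or more normalized counts, LIFR, LIF and IL6ST, and the 3 genes nearest to HSPA5. The 7 lists are those named in the results, and marker lists checked the cell type. Alternatives were other scalings, filters, thresholds, DESeq2 1.42.0, limma 3.58.1 voom, a replicate block, removal of GC and length trends (splines with 5 degrees of freedom), and leaving out each library. Protein sequences were not used here.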

Additional observations from a re-analysis of the deposited data

How the results depend on the processing

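Over the 15 alternatives, 122 of 148 values of the 10 members kept their direction and their side of the threshold, 18 passed where the main test did not, 5 no longer passed, and 3 changed sign. DESeq2 gave no adjusted p for DNAJB9 and SDF2L1, which are not counted there. The 3 were CANX with total counts only (0.012), without vehicle replicate 1 (0.0055) and without EC359 replicate 2 (0.012), and leaving out 1 library gave CANX -0.037 to 0.012. CALR ran from -0.28 to -0.23 and HSP90B1 from -0.27 to -0.19. HSP90B1 did not pass with no filter (adjusted p = 0.0138), and neither gene passed without either EC359 replicate. In the markers, WT1 (-0.12) and KRT7 (-0.0035) changed sign without vehicle replicate 1, CDH5 (0.013) without vehicle replicate 2 and PDGFRA (-0.0024) without EC359 replicate 2. Leaving out 1 library gave WT1 -0.12 to 0.34, CDH5 -0.077 to 0.013 and PDGFRA -0.0024 to 0.18.

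Members called lower, all genes lower, all genes higher, list genes lower and list genes higher numbered 2, 101, 38, 2 and 3 in the main test. With total counts as the only scaling all genes lower and higher numbered 68 and 52. With no filter the first 4 were 1, 44, 17 and 1, with more genes tested. DESeq2 gave 4, 175, 61 and 6 for the first 4. With GC and length trends removed they were 5, 749, 330, 20 and 9. An adjusted p under 0.05 gave 5, 336, 213, 11 and 6, and an unadjusted p under 0.01 gave 5, 708, 547, 20 and 12. Leaving out 1 library gave 0 to 5, 0 to 283, 0 to 256, 0 to 8 and 0 to 7, with 0 for members without EC359 replicate 1 or 2. Members called higher numbered 0 throughout, and by edgeR 1 of them was higher at an unadjusted p under 0.05. Apart from the thresholds and filters, the cause of these moves was not tested.

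A replicate block gave 5, 847, 692, 25 and 16. The labels give no shared batch for a replicate number. The deviations of same-numbered libraries correlated at 0.112, which with 2 libraries per treatment is 1 value for both replicate numbers. Whether same-numbered libraries share a batch was not tested. At the depth of these libraries, log2 changes of the size seen in DNAJB9 and SDF2L1 came with standard errors of 0.10 and 0.11.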

Other observations

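An ERSE or ERSE-II was also found within 250 bases before a RefSeq start of 35 genes outside the 10 members, a list that rests on sequence alone and was added after the fold changes had been seen. Of these, 22 were tested, 13 with a log2 fold change below 0 and 9 above 0, and their median log2 fold change was -0.05. By edgeR 1 was called lower and 0 higher, and at an unadjusted p under 0.05 there were 4 lower and 2 higher. Over all 12706 tested genes, 6230 were below 0 and 6476 above 0, and 11% were lower and 10.7% higher at that unadjusted p. The gene called was GYS1, muscle glycogen synthase, with 2014 and 2082 normalized counts in vehicle and 1642 and 1593 with EC359 (log2 fold change -0.34, adjusted p = 0.0055). Without EC359 replicate 1 or 2, 0 of all tested genes were called lower, GYS1 included. Several of the others act in the ER. HYOU1, an Hsp70-like chaperone that exchanges nucleotide on HSPA5, had 4750 and 5071 normalized counts with vehicle and 4450 and 4611 with EC359 (log2 fold change -0.12, adjusted p = 0.144). CRELD2 had a log2 fold change of -0.055 (adjusted p = 0.708) and SERP1 of -0.044 (adjusted p = 0.508). FICD, which modifies HSPA5, had 0.23 (adjusted p = 0.437), and ERO1LB had 0.29 (adjusted p = 0.168).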
